A study of Mus musculus with 4 samples.

Results

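Gene deserts are long stretches of the genome that hold no protein-coding gene. The RAD21 sites described here are those that lie outside every annotated gene and more than 200 kb from the nearest transcription start of any protein-coding gene, in the mouse assembly mm9 with the GENCODE vM1 annotation. There were 1048 such sites among 18691 autosomal RAD21 sites (5.61%). They were found by position alone, from the peak summits called in embryonic stem cells (ESCs, day 0) and in embryoid bodies (EBs, day 12), and an EB summit within 250 bp of an ESC summit was counted once. Of the 1304 sites more than 200 kb from a coding start, those inside an annotated gene of another kind or a very long gene were left out.

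The cells were R1/E mouse ESCs carrying an extra copy of Rad21 on a bacterial artificial chromosome, fused to a tag that holds GFP, and the libraries of both cell states came from cells with this transgene. The ESC group was undifferentiated cells at day 0, and the EB group was cells left to differentiate as hanging-drop aggregates for 12 days. Chromatin was precipitated with an antibody against GFP, or with goat IgG as the control, which the labels also call input DNA. Each of the 4 groups (ESC RAD21, EB RAD21, ESC IgG and EB IgG) was 1 library, so no comparison between ESCs and EBs had a replicate check, and all intervals given are 95% intervals that cover counting error only. Resistant clones had been sorted for GFP, so the line reports tagged RAD21 only, and EBs hold several cell types whose shares cannot be told apart from occupancy per cell.

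RAD21 is the subunit that closes the ring of cohesin, the protein complex that holds sister chromatids together and folds interphase chromosomes into loops. Cohesin does not read a DNA sequence of its own, and most of its stable positions lie at sites bound by CTCF, a zinc finger protein that recognises a long motif and halts cohesin with a fixed orientation. Deserts beside developmental regulators are known for holding enhancers that act over great distances, whereas others hold little known regulatory sequence.

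The sequences of a few desert sites show what the CTCF motif looked like there. Each is written 5′ to 3′ on the + strand of mm9, and the capitals mark the best 20-bp match to a matrix learned from the RAD21 sites of other chromosomes, whose consensus was GTGGCCACCAGGGGGCGCCA. A match on the − strand appears as the reverse complement. The first sequence was among the strongest ESC sites, the second was the strongest EB site, and the third lay farthest of all from a coding start. The next 2 had many reads in ESCs and none in EBs, and the 3 after them had among the largest gains in EBs. The last had a high EB score without a motif match, so it carries no capitals.
Cntn3 to Chl1, chr6:103256865-103256958: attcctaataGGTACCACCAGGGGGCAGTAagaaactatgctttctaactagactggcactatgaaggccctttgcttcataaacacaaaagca
Adamts5 to N6amt1, chr16:86882927-86882978: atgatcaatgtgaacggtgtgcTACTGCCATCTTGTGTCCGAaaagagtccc
Cntnap5b to Cdh20, chr1:104275351-104275439: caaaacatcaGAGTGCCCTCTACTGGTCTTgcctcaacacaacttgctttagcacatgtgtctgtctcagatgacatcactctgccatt
Adcyap1 to Mettl4, chr17:94273971-94274120: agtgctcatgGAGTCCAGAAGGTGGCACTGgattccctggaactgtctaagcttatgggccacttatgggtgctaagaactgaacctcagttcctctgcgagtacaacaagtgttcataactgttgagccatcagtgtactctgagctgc
Gm5908 to Wrn, chr8:33997177-33997218: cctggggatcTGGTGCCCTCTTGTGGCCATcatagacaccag
Erbb4 to Ikzf2, chr1:69378137-69378212: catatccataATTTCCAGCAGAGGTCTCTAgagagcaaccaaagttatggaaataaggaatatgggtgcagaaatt
Ets1 to Kirrel3, chr9:32888436-32888507: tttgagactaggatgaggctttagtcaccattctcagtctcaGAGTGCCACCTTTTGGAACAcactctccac
Fbxo8 to Hand2, chr8:59363166-59363219: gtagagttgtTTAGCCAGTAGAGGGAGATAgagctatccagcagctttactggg
Epha4 to Pax3, chr1:77892898-77892998: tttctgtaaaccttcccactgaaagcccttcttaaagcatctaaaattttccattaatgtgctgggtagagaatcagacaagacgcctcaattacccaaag

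The 9 sites of the desert between Med13l and Tbx3 on chromosome 5, which shared with 2 others the highest number of sites, all held a match at the looser of the 2 limits used (defined with the motif shares further on). Med13l encodes a subunit of the Mediator complex and Tbx3 a T-box transcription factor of limb and heart development. The matches are set out below in order along the chromosome, each read in the direction of the motif, with the motif in capitals and 10 flanking bases on each side. The third and the sixth match lay on the − strand of mm9 and the others on the + strand.
Site 1, chr5:119224047-119224086: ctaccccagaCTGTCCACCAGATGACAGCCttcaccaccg
Site 2, chr5:119231748-119231787: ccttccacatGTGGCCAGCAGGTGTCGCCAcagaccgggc
Site 3, chr5:119302670-119302709: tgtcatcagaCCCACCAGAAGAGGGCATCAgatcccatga
Site 4, chr5:119327551-119327590: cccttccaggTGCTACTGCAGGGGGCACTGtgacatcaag
Site 5, chr5:119329904-119329943: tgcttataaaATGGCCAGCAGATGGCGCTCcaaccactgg
Site 6, chr5:119665116-119665155: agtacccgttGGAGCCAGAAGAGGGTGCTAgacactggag
Site 7, chr5:119743073-119743112: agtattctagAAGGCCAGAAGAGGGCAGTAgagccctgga
Site 8, chr5:119810545-119810584: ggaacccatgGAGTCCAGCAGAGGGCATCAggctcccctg
Site 9, chr5:119833806-119833845: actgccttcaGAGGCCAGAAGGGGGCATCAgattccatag

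RAD21 sites were sparse in gene deserts. The deserts spanned 481.6 Mb, or 20.1% of the assembled autosomal sequence, and held 2.18 sites per Mb against 9.23 per Mb elsewhere. The ratio of the densities was 0.236 (0.221 to 0.251). Outside genes the density fell with each step away from coding starts. It was 15.6 sites per Mb within 10 kb of a start, 4.65 per Mb between 100 and 200 kb, 3.29 per Mb between 200 and 300 kb, 1.46 per Mb between 500 kb and 1 Mb, and 0.895 per Mb (0.670 to 1.17, 53 sites) beyond 1 Mb. GC content moved with distance, since the median of 1-kb bins was 38.3% in deserts and 42.6% elsewhere. Within 5 classes of bins with like GC content the ratio of densities lay between 0.295 and 0.338, so the desert density was lower in every class. Within 250 bp of the summit the median GC content was 40.9% at desert sites and 45.1% at other sites, and within deserts it was 42.1% at the sites called in ESCs alone and 38.9% at those called in EBs alone.

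**Figure D1:**
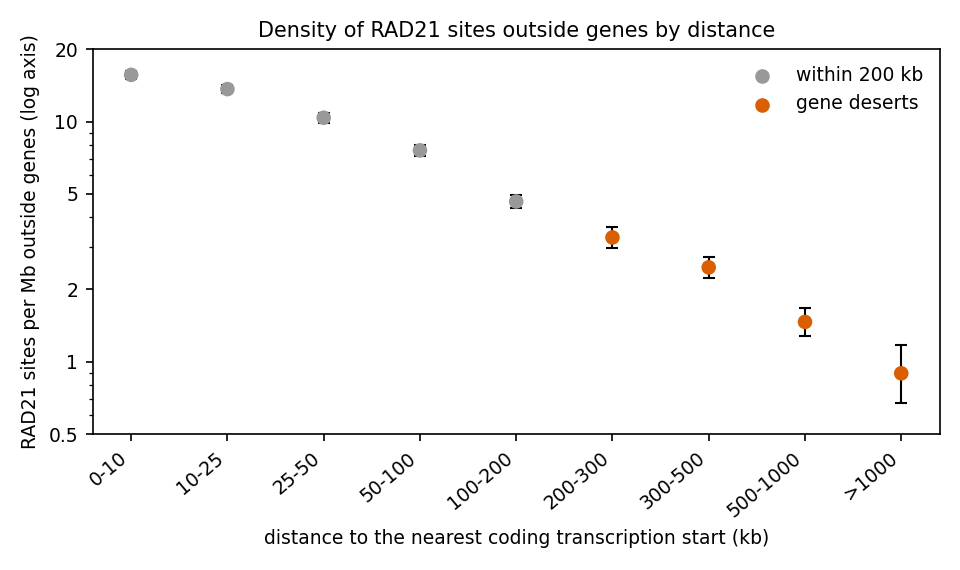
RAD21 sites per Mb of sequence outside genes (vertical axis) by distance to the nearest protein-coding transcription start (horizontal axis, classes in kb), on a log axis with 95% Poisson intervals. The density fell from 15.6 sites per Mb within 10 kb to 0.895 per Mb beyond 1 Mb.

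The median desert site lay 337 kb from the nearest coding start, 265 sites (25.3%) lay more than 500 kb away and the farthest lay 2390 kb away. The low density also showed in the distance from a desert site to the nearest other RAD21 site, whether in a desert or not. The nearest other RAD21 site was at a median of 92.2 kb (81.7 to 105) for desert sites and 24.4 kb (23.6 to 25.03) for the rest. Another site lay within 10 kb of 13.8% of desert sites and of 29.7% of the rest. The 3 sites just inside the limit lay 200.344 kb (chromosome 15, position 39975884, 17 RAD21 reads in ESCs and 12 in EBs), 200.792 kb (chromosome 8, position 34295207, 28 and 18 reads) and 200.988 kb (chromosome 6, position 3134017, 58 and 16 reads) from a start. The 3 just outside lay 199.923 kb (chromosome 19, position 59818980, 15 and 18 reads), 199.679 kb (chromosome 12, position 7784775, 31 and 19 reads) and 199.322 kb (chromosome 2, position 178364634, 21 and 7 reads) from one.

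Of the 1048 desert sites, 332 (31.7%) were called in both cell states, 438 (41.8%) in ESCs alone and 278 (26.5%) in EBs alone. The corresponding shares of the other 17643 sites were 38.8%, 42.4% and 18.9%. These classes record what the peak caller listed in each state and not absence in the other. At the desert sites listed in ESCs alone, 40.2% had more than 5 EB RAD21 reads, the 95th percentile of desert windows away from sites, against 4.11% for EB IgG reads. Of these 438 sites, 18 had no EB RAD21 read. At the sites listed in EBs alone, 60.4% had more ESC RAD21 reads than the 95th percentile of such windows (6 reads), against 7.91% for ESC IgG. Outside deserts the shares were 54.7% of the sites listed in ESCs alone and 66.6% of those listed in EBs alone. Those used the percentiles of windows outside deserts, 4 EB and 7 ESC reads, so they are not at like counts.

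A desert site called in EBs was less often also called in ESCs than an EB site elsewhere. The share was 54.4% (50.4 to 58.4) of 610 desert EB sites and 67.3% of the rest, a difference of −12.9 percentage points (−16.9 to −8.83, Newcombe interval). The desert value was the lower in each band of peak score, from 30.2% against 44.7% in the lowest band to 85.4% against 93.3% in the highest. GC content moved with this difference, since the rest weighted to the GC content of the desert sites gave 61.0%. Weighted to score alone the rest gave 66.9%, close to its unweighted share, and weighted to both 59.0%. By GC class the desert share was the higher in the second highest class (77.8% against 74.3%) and the lower in the others. For the 770 desert ESC sites, 43.1% (39.6 to 46.7) were also called in EBs against 47.8% of the rest, a difference of −4.69 points (−8.24 to −1.07). This difference was not seen at like scores, since the rest weighted to the scores of the desert sites gave 43.0%, and the desert share was the higher in the lowest bands (27.2% against 25.3%, and 39.9% against 39.2%) and the lower in the others. At like GC content the difference remained. The desert share was the lower in each GC class, at 48.3% against 59.9% in the lowest. The rest weighted to GC content alone gave 52.8%, and weighted to both GC content and score 48.6%.

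The peak score is −10 times the log10 of the p-value that the caller gave each peak. The strongest ESC peaks were scarce in deserts. The median score of desert ESC sites was 84.9 against 95.2 for other ESC sites, and 21 of 770 (2.73%, 1.70 to 4.14) reached 250 against 6.68% elsewhere. EB sites showed no such gap, with medians of 96.5 and 97.8, and 6.72% (4.87 to 9.01) against 6.92% at 250 or more. Within 250 bp of the summit, the median desert ESC site held 22 RAD21 and 3 IgG reads, and the median desert EB site 18 and 2.

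The highest ESC score in a desert was 432.52, at chromosome 3, position 7010911, between 1700008P02Rik and Pkia, with 63 ESC and 23 EB RAD21 reads. The highest EB score was 652.51, at chromosome 16, position 86882937, between Adamts5, which encodes a protease of cartilage matrix, and N6amt1. This site held 21 ESC and 67 EB reads, an EB to ESC ratio of 5.65 (3.42 to 9.72) after scaling to autosomal reads. An EB-only site between Epha4, an ephrin receptor, and Pax3, a transcription factor of the neural crest and muscle, had a score of 467.01 without a motif match. It held 13 ESC and 52 EB reads, a ratio of 7.09 (3.81 to 14.2). IgG reads were few at all of these: 4 at the ESC site in ESCs, and 2 at each of the EB sites in EBs. The sites were picked for their score, which rests on the same reads, so that choice partly fixes the ratios.

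Scaled RAD21 reads at the median desert site were higher in EBs, and the ratio moved with GC content and with IgG. The median of log2 EB over ESC reads, with 1 read added and scaled to autosomal reads, was 0.34 (0.21 to 0.45) at desert sites and 0.03 at the rest. The rest weighted to the GC content of desert sites gave 0.38. From the lowest to the highest GC class the desert median was 0.72, 0.20, 0.06, −0.42 and −0.55, and the rest gave 0.74, 0.24, −0.04, −0.17 and −0.33. IgG reads pooled over desert sites had an EB to ESC ratio of 1.25 (1.19 to 1.32), close to the RAD21 ratio of 1.29 (1.27 to 1.32). With the log2 EB over ESC ratio of IgG subtracted at each site the desert median was −0.23 (−0.39 to −0.05) and that of the rest −0.28, so the sign turned. That IgG ratio rests on a median of 3 and 2 reads per site, with 1 read added to each before scaling. The EB IgG library was the smaller, so the added read raises the IgG ratio and lowers the subtracted median. The median IgG log2 ratio at sites was 0.45 in deserts and 0.28 elsewhere. Over windows away from sites, with no read added, IgG gave 0.21 and −0.05. How much of the turned sign comes from the added read was not tested. The part of GC content in the RAD21 difference was not tested.

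**Figure D2:**
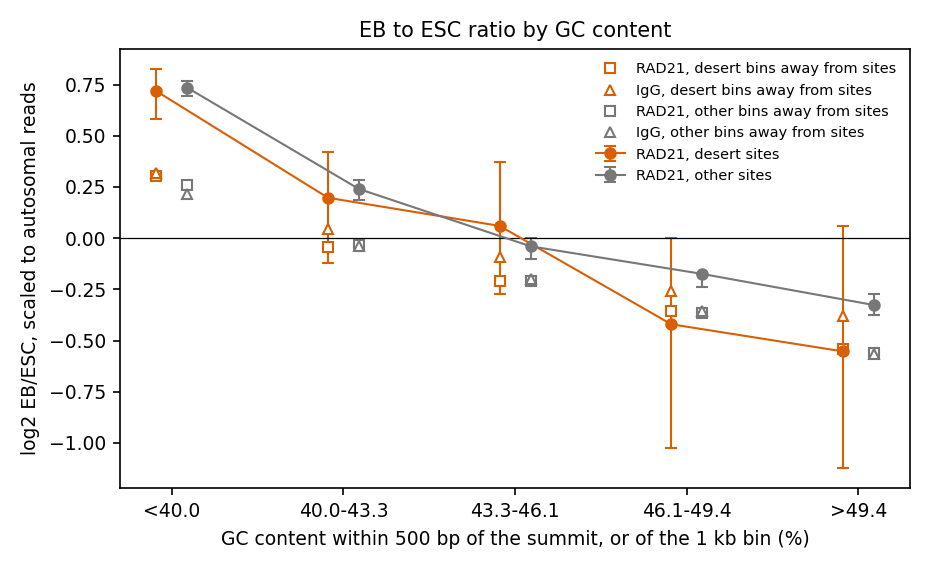
Median log2 of EB over ESC RAD21 reads (vertical axis) in 5 classes of GC content (horizontal axis), for desert sites and other sites (filled circles, with 95% order-statistic intervals) and, as open squares (RAD21) and triangles (IgG), over 1-kb bins away from sites. The medians at sites fell from the lowest to the highest class, from 0.72 to −0.55 in deserts and from 0.74 to −0.33 elsewhere.

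The ratio was also above 1 at the sites called in both states, which is not separate support. A shared site had to be called from the smaller EB RAD21 library too, so this class can also partly fix the ratio. Outside deserts the median log2 ratio was 0.03 at all sites and 0.38 at shared sites. The 332 shared desert sites held 8741 ESC and 7847 EB RAD21 reads, a ratio of 1.59 (1.54 to 1.64), beside an IgG ratio of 1.42 (1.29 to 1.56). Their median log2 ratio was 0.61 against 0.38 for shared sites elsewhere and 0.55 for those weighted to the same GC content. When each library was scaled by bins of like GC content, shared sites gave 0.58 in deserts and 0.58 elsewhere, and with the IgG log2 ratio subtracted at each site both gave 0.09. ESC-only and EB-only desert sites had medians of −1.12 and 1.83, which their class partly fixes.

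A difference was called where scaled reads, with 1 read added, differed by 2-fold or more. The exact conditional interval of the scaled ratio, with no read added, also had to exclude 1. By this rule 303 of 1048 desert sites (28.9%, 26.2 to 31.8) were higher in EBs, while the background over all autosomal sites was 17.5%. In the other direction 184 (17.6%, 15.3 to 20.0) were lower, beside a background of 17.7%. The share called lower was thus close to that of all sites. Of the 303 higher sites 214 were EB-only and 89 shared, and all 184 lower sites were ESC-only. The calls rest on the same reads as the peak lists, so the class of a site partly fixes its call. EB-only sites made up 26.5% of desert sites and 18.9% of the rest. Scaled by bins of like GC content, 279 sites were higher (26.6% against 20.9% of all sites) and 178 lower (17.0% against 13.5%).

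**Figure D3:**
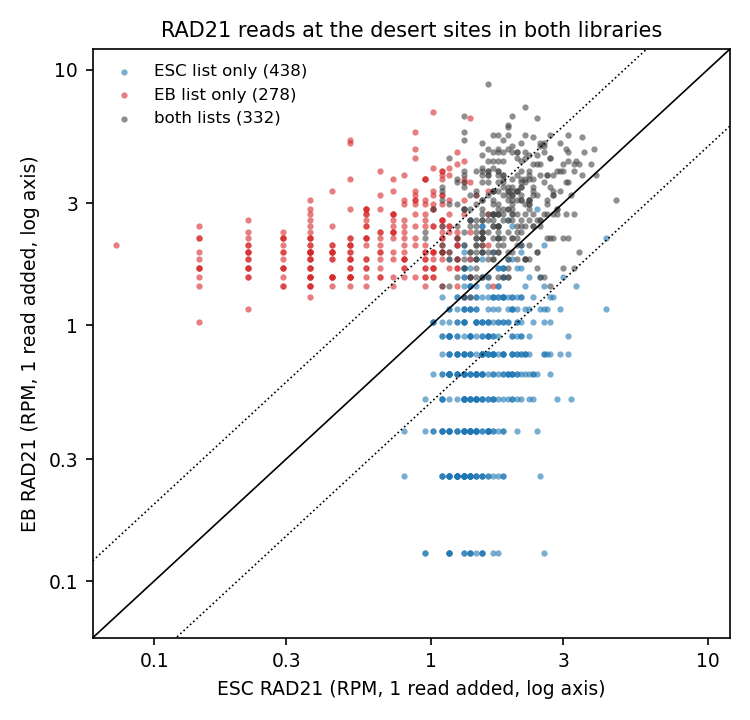
RAD21 reads at each desert site in EBs (vertical axis) against ESCs (horizontal axis), in reads per 1000000 autosomal reads (RPM) with 1 read added on log axes, coloured by list; the solid line marks equal values and the dotted lines a 2-fold difference. Of the sites, 303 were called higher in EBs and 184 lower.

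The lowest ratios were at sites with no EB read. An ESC-only site between Adcyap1, a neuropeptide gene, and Mettl4 on chromosome 17 (position 94274114) held 34 ESC reads and 0 EB reads, so it was at least 6.396-fold lower in EBs against a floor of 3 EB reads, a bound that leaves out the counting error of the ESC reads. The exact interval of its EB to ESC ratio reached up to 0.203. The site between Gm5908 and Wrn, a DNA helicase gene, on chromosome 8 (position 33997208) held 23 and 0 reads (at least 4.33-fold lower, interval up to 0.308). The third, between Med13l and Tbx3 (position 119302549), held 22 and 0 (at least 4.14-fold lower, interval up to 0.323). The first had 4 EB IgG reads, and the other 2 had 0. Such sites were picked for a low ratio, so the choice fixes its direction and partly its size.

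The site farthest from a coding start, between Cntnap5b and Cdh20, neural adhesion genes on chromosome 1 (position 104275429), held 28 ESC and 5 EB reads, a ratio of 0.316 (0.0954 to 0.830). A second site of the same desert (position 103815656), without a motif match, held 18 and 2 reads (0.197, 0.0222 to 0.822). Both were ESC-only and called lower in EBs.

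Among sites with at least 20 RAD21 reads over both libraries, the highest ratios were at EB-only sites. Sites with fewer reads reached higher ratios and were not ranked. A site between Erbb4, a neuregulin receptor, and Ikzf2, a zinc finger factor of lymphocytes, on chromosome 1 (position 69378202) held 2 ESC and 19 EB reads, a ratio of 16.8 (4.06 to 149.03). A site between Ets1, a transcription factor of blood and endothelium, and Kirrel3 on chromosome 9 (position 32888446) held 6 and 40 reads (11.8, 4.98 to 34.1). The site between Cd109 and Col12a1, a collagen gene, on the same chromosome (position 78957611) held 6 and 39 (11.5, 4.84 to 33.3). A site between Fbxo8 and Hand2, which encodes a transcription factor of the heart, limb and neural crest, on chromosome 8 (position 59363209) held 4 and 23 (10.2, 3.48 to 40.5). A further site lay nearest Pcdh18, a protocadherin gene, on chromosome 3 (position 49070283), with 3 and 17 reads (10.04, 2.90 to 53.5). The wide intervals come with ESC counts of 2 to 6 reads. These sites were picked for a high ratio, so the choice fixes its direction and partly its size, which the intervals do not cover.

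Most desert sites held a CTCF motif, but fewer held a strong one than sites elsewhere. The motif was scored within 150 bp of each summit at 2 limits, set so that 1e-05 or 1e-04 of the positions of the genome reached them. At 1e-05, 316 of 1048 desert sites (30.2%, 27.4 to 33.0) held a match against 38.6% of the rest, a difference of −8.46 points (−11.3 to −5.52). The rest weighted to the GC content of deserts gave 36.1%. At 1e-04 the shares were 81.3% and 85.4%. Matches occurred in 0.109% and 2.92% of desert windows away from sites at the 2 limits. Over the 852 matches at 1e-04 a median of 12 of the 20 bases equalled the consensus, with a range of 7 to 18.

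The motif share followed the class of the site, in deserts and elsewhere. At 1e-04 it was 92.5% (89.1 to 95.1) at shared, 85.6% (82.0 to 88.8) at ESC-only and 61.2% (55.1 to 66.9) at EB-only desert sites. Elsewhere these shares were 94.3%, 86.1% and 65.4%. At 1e-05 the desert shares were 31.6%, 42.5% and 8.99%, against 40.6%, 45.1% and 20.0% elsewhere. All 21 desert ESC sites with a score of 250 or more held a match at 1e-04, as did 96.1% of such sites elsewhere. Of the desert EB sites with such a match 64.7% were also called in ESCs, and of those without it 16.3%. The shares elsewhere were 74.8% and 24.6%. At 1e-05 the desert EB shares were 81.1% with a match and 47.1% without. For desert ESC sites the direction depended on the limit. At 1e-04, 45.0% with a match and 28.4% without were also called in EBs. At 1e-05 these were 36.1% and 47.4%, beside 45.2% and 49.7% elsewhere.

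The summit lay on the 3′ side of the motif at most desert sites, with the motif read in the direction of the consensus printed above. At matches at 1e-05 the median offset was 48.5 bp in ESCs, with 85.2% (80.6 to 89.1) of 291 summits on the 3′ side, and 47.0 bp in EBs, with 81.1% (73.3 to 87.4) of 132. The shares elsewhere were 80.6% and 72.7%.

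Short letter patterns of other factors were counted at the 196 desert sites without a match at 1e-04, as forward and reverse complement letters within 150 bp. The GATA pattern AGATAAG was present at 7.65% (4.35 to 12.3) of them and in 4.94% of desert windows weighted to the same GC content. The octamer ATGCAAAT, read by Oct factors, was present at 5.10% (2.47 to 9.18) against 3.41%, and the TEAD pattern GGAATG at 20.4% (15.0 to 26.7) against 17.1%. The Sox pattern ACAATGG and the Fox pattern TGTTTAC were each at 6.12% against 6.46% and 4.70%, the Klf pattern GGGTGTGG at 1.53% against 1.19% and the Esrrb pattern TCAAGGTCA at 1.02% against 0.507%. The interval held the window value for each of the 7 patterns, so no difference was detectable at this number of sites.

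The longer sequence at the third site of the Med13l to Tbx3 desert is shown here because it holds the letters GATGGCTCA, in lower case on the 3′ side of the motif, which lies on the − strand. These letters occur in the B2 family of short interspersed elements, mobile repeats of the rodent genome. They were chosen for counting after the sequences had been seen, and those sequences included sites picked for the lowest EB to ESC ratios.
Site 3 with its flank, chr5:119302560-119302709: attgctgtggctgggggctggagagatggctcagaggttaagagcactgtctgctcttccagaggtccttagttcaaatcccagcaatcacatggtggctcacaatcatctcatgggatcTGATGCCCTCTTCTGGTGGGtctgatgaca

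The letters, read on both strands, differed in share among the classes of sites. They lay within 150 bp of 26 desert sites, of which 25 were ESC-only (25 of 438, 5.71%, 3.73 to 8.31) and 1 was shared (1 of 332, 0.301%). None of 278 EB-only sites held them, which allows a share of up to 1.08% by a limit of 3 counts, or 1.32% by the exact interval. Desert windows away from sites held them at 0.646%. Elsewhere the shares were 7.27% of ESC-only, 1.08% of shared and 0.931% of EB-only sites, beside 2.08% of windows away from sites. In deserts shared and EB-only sites cannot be ranked on counts of 1 and 0. The letters do not identify a repeat copy, since no repeat annotation was used here.

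At these 26 sites, 25 of them ESC-only by the peak lists, RAD21 reads were lower in EBs, as that class partly fixes. ESC counts ran from 14 to 36 with a median of 19, and EB counts from 0 to 9 with a median of 3.5. The sums were 535 and 89 reads, an EB to ESC ratio of 0.295 (0.233 to 0.370). IgG reads at the same sites were 73 and 52, a ratio of 1.2955 (0.890 to 1.87). Of the 25 ESC-only sites with the letters 16 (64.0%) were called lower in EBs, against 168 of 413 (40.7%) of the ESC-only desert sites without them. The 16 include sites picked for their low ratio before the letters were chosen, so these shares are no separate test. They are the site between Adcyap1 and Mettl4 (34 ESC and 0 EB reads) and that between Med13l and Tbx3 at position 119302549 (22 and 0 reads).

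**Figure D4:**
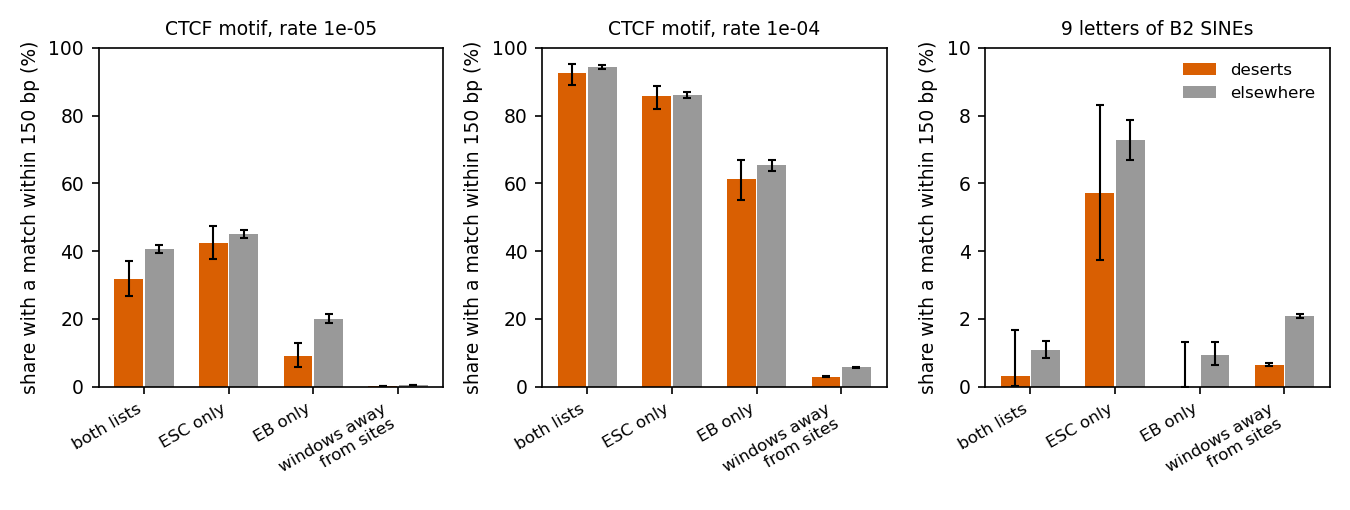
Share of sites, by class, and of windows away from sites that held a CTCF motif match at either limit or the letters of a B2 element (vertical axes, percent; the third panel has its own scale), in deserts and elsewhere, with exact 95% intervals. EB-only sites had the lowest motif share (61.2% at 1e-04), and 25 of the 26 sites with the B2 letters were ESC-only.

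The sites were spread over many deserts. A desert was counted as the qualifying sequence between neighbouring coding starts, or out to a chromosome end. Its length leaves out the 200 kb beside each start, annotated genes and assembly gaps. There were 865 deserts with a median length of 321 kb, and 469 held at least 1 site, 205 held exactly 1 and 42 held 5 or more. Among the 144 deserts of 1 Mb or more, 25 held none. The longest without a site lay between Gm17624 and Vstm2a on chromosome 11, with a length of 3051 kb by this count and 3610 kb between the flanking starts. The richest were those between Med13l and Tbx3, between Kcnj2 and Gm11678 and between Fam92a and Runx1t1, with 9 sites each.

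The Med13l to Tbx3 desert held 12.8 sites per Mb in 705 kb. Of its 9 sites 6 were ESC-only, 2 shared and 1 EB-only, and its 9 sites together held 157 ESC and 72 EB reads, a ratio of 0.813 (0.606 to 1.08). In the order of the sequences above, ESC reads were 30, 20, 22, 13, 6, 21, 17, 14 and 14, and EB reads were 23, 11, 0, 4, 21, 2, 2, 5 and 4. Site 5 thus stood against its neighbours, with a ratio of 6.201 (2.42 to 18.8), and 3 of the others were called lower in EBs. Site 5 was the EB-only site and those 3 were ESC-only, so their class partly fixes these directions.

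The Kcnj2 to Gm11678 desert on chromosome 11 lies in the same long interval as Sox9, a transcription factor of cartilage and testis whose start is 350.6 kb beyond Gm11678. Its 9 sites held 206 ESC and 198 EB reads, a ratio of 1.70 (1.39 to 2.08), and all 9 had a motif at 1e-04. A cluster of 3 sites lay at 466, 470 and 472 kb from the Kcnj2 start, with 16, 36 and 23 ESC reads and 36, 34 and 12 EB reads.

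The Fam92a to Runx1t1 desert on chromosome 4, beside the gene of the transcriptional repressor Runx1t1, was of the other kind. Of its 9 sites 6 were EB-only, and none of these 6 held a motif at 1e-04. ESC reads at the 6 sites were 11, 2, 4, 4, 1 and 3, and EB reads were 22, 13, 10, 16, 16 and 16, a direction that the class partly fixes. The 9 sites together had a ratio of 2.83 (2.18 to 3.70). The Adamts5 to N6amt1 desert had 5 EB-only and 2 shared sites, all 7 were called higher in EBs, and together they held 97 ESC and 215 EB reads (3.93, 3.08 to 5.04).

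**Figure D5:**
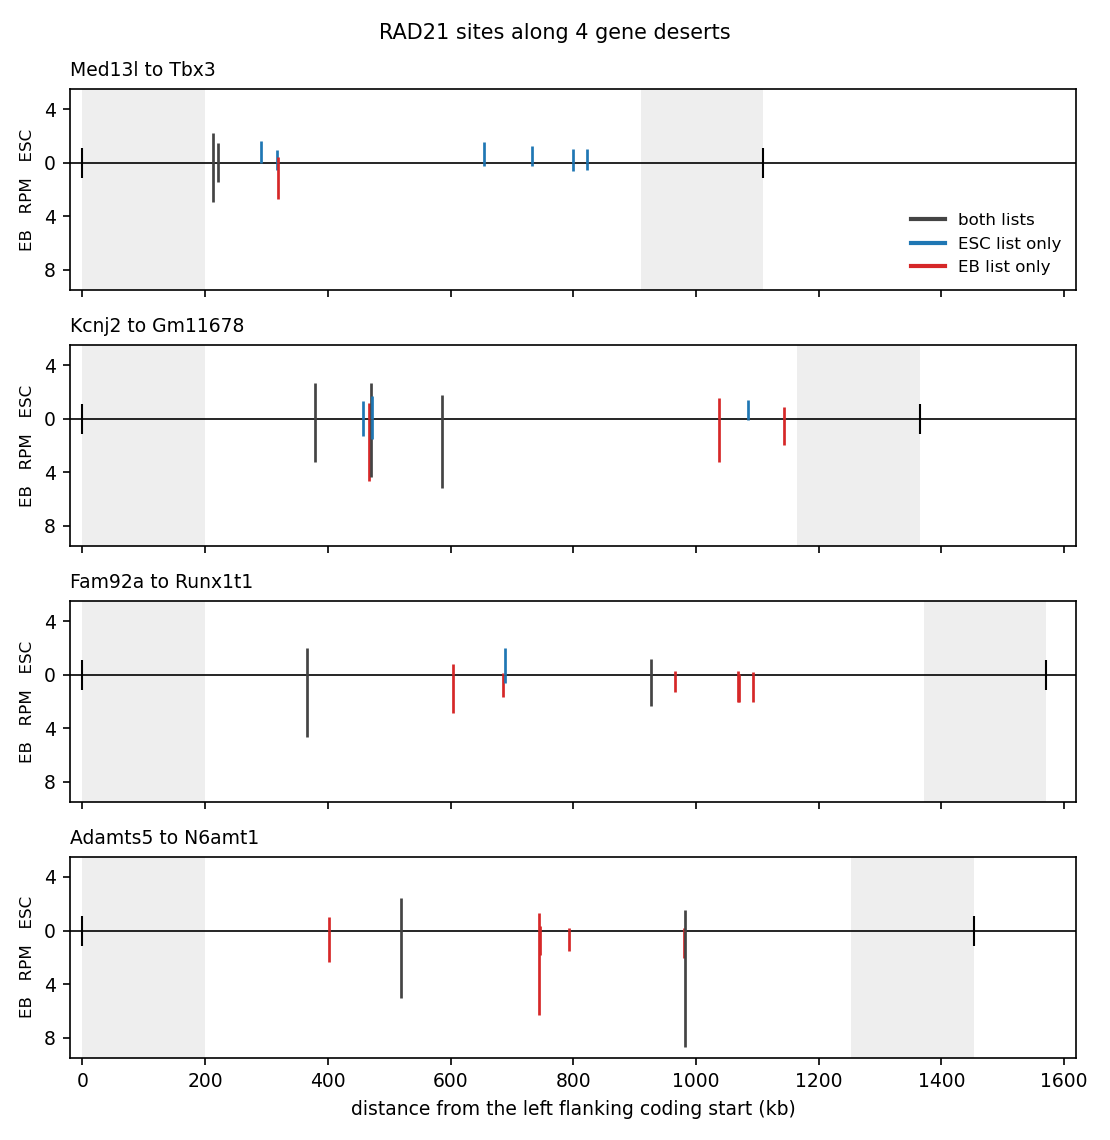
RAD21 reads per 1000000 (RPM) at each site of 4 deserts, with ESCs drawn upward and EBs downward from the line, by distance in kb from the left coding start (horizontal axis). Colours give the list, black ticks the flanking coding starts and grey the 200 kb beside them. The Med13l to Tbx3 sites held 157 ESC and 72 EB reads in all, and the Adamts5 to N6amt1 sites 97 and 215.

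The deserts with 7 or 8 sites also went either way. The desert between Igsf11 and Lsamp, a neural adhesion gene, held 147 ESC and 164 EB reads over 8 sites (1.98, 1.57 to 2.49), and that between Zeb2, a transcription factor of the neural crest, and Acvr2a, an activin receptor, held 124 and 159 over 8 sites (2.27, 1.79 to 2.90). The desert between Fam86 and Rbfox1, a splicing factor of neurons, held 170 and 63 over 8 sites (0.657, 0.484 to 0.882), 5 of which were ESC-only. That between Nr2f1, a nuclear receptor of neural development, and Arrdc3 held 139 and 60 over 7 sites (0.765, 0.555 to 1.04), an interval that included 1. The mix of ESC-only and EB-only sites in a desert, which rests on the same reads, went with its ratio only in part. The Vrk2 to Gm6685 desert had 5 ESC-only and 0 EB-only sites among 7, with a ratio of 0.968 (0.745 to 1.25). The Pcdh7 to G6pd2 desert had 1 and 3 among 7, with a ratio of 1.32 (0.987 to 1.75). The Kcnj2 to Gm11678 desert had 3 and 3 among 9, with a ratio of 1.70 (1.39 to 2.08).

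Deserts beside developmental transcription factors were richer in sites than deserts beside neural adhesion genes. The 89 deserts with a member of a list of developmental transcription factors at an edge held 160 sites, or 3.55 per Mb (3.03 to 4.15), beside 2.18 per Mb (2.05 to 2.31) over all deserts. The 17 deserts beside genes of developmental signals held 16 sites (3.10 per Mb, 1.77 to 5.04). The 92 deserts beside neural adhesion and guidance genes held 170 sites, or 1.58 per Mb (1.35 to 1.83). Median GC content moved the same way, at 40%, 38.9% and 37.2%, and its part was not tested. The neural deserts were also long, with a median of 885 kb against 397 kb for those beside transcription factors. Among the deserts with a listed gene at an edge, that between Epha4 and Pax3 held 6 sites in 282 kb, and that between Bmp2, a growth factor gene, and Hao1 held 5 sites.

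The ratio differed between chromosomes. IgG reads over the whole of chromosomes 6, 8 and 11 were 1.14 to 1.23 times higher in ESCs than in EBs, against 0.91 to 1.04 on the other autosomes. The 154 desert sites on these 3 chromosomes had a median log2 EB over ESC of −0.27 (−0.57 to 0.17), against 0.42 (0.31 to 0.52) on the other autosomes, and IgG gave 0.28 and 0.45. Taken singly, the desert medians were −0.48 on chromosome 6, −0.30 on chromosome 8 and 0.24 on chromosome 11. Chromosomes 7 (−0.27), 9 (−0.13) and 17 (−0.29), where IgG did not differ in this way, were also below 0. Total autosomal reads were 13714772 for ESC RAD21, 7740389 for EB RAD21, 12602155 for ESC IgG and 6929293 for EB IgG.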

How the data were processed

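The reads of 35 bases had been aligned to mm9 and peaks called by the authors with MACS, in each cell state against its own IgG library. The aligner was not given in the sources used here. The deposited files held aligned read positions for each library, the authors' score for each peak (−10 log10 of the p-value), and a signal for each summit (the height of piled-up reads, not scaled between libraries). Reads were counted within 250 bp of each summit. Each read was placed at the middle of its fragment, and ratios were scaled to autosomal reads. The CTCF motif was a 20-bp matrix started from the CTCF core consensus, learned on odd chromosomes and applied to even ones, and the reverse. Shares carry exact Clopper-Pearson intervals, their differences Newcombe intervals, read ratios exact conditional intervals and medians order-statistic intervals. The scripts were tested on simulated data. Python 3.11.15, numpy 2.4.6, scipy 1.17.1 and pandas 2.3.3 were used. The members, gene lists and patterns were chosen with earlier results of these data known. The gene lists matched 190 of 192, 47 of 47 and 79 of 79 names. Sites were named from the 5 highest by ESC score, EB score and distance, the 5 lowest and 5 highest by ratio among those with at least 20 reads, and the 5 highest in score without a motif, and some of each are given. Deserts were named from the 10 with the most sites and the longest without one. Chromosome X was left out of all counts, because the EB IgG file ended early on it.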

Additional observations from a re-analysis of the deposited data

Results flagged for a closer look

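Desert sites on chromosome X were outside every comparison above and had RAD21 reads above the IgG control. The 9 ESC sites held 171 RAD21 and 13 IgG reads, a ratio of 12.1 (6.88 to 23.2) after scaling to autosomal reads. The 5 EB sites before the end of the IgG file held 82 and 7, a ratio of 10.5 (4.87 to 26.9). These sites had been called for exceeding this same IgG. There were 16 sites in all, 5 shared, 4 ESC-only and 7 EB-only.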

How the results depend on the processing

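The 10 results were recomputed under 49 alternatives, of which 29 left the result within its interval or within 1.5 times the count. With 100 kb or 500 kb in place of 200 kb the number of sites was 2025 or 265 and the ratio of densities 0.299 or 0.154. Sites of score 100 or more numbered 458, with a density ratio of 0.211 and shared shares of 60.6% (ESC) and 73.6% (EB). Per IgG read the ratio was 0.252 (ESC) and 0.2102 (EB). Sites joined within 100 bp gave shared shares of 37.7% and 47.5%. The motif share was 81.3% at 1e-04, 24.8% within 100 bp, 33.1% with 100 kb and 76.5% at a limit for independent bases, which was added after the data had been seen. The median log2 ratio was 0.18 within 100 bp and −0.23 after the IgG log2 ratio was subtracted at each site, which reversed its sign. GC content was 42.2% within 150 bp and 40.3% within 500 bp. The cause of these changes was not tested. No paired analysis was possible because each group held 1 library, and no replicate could be left out. At a median of 2 or 3 IgG reads per site, IgG at a single site is not resolved. The 1 read added before scaling also raises its EB to ESC ratio.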

Other observations

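Neighbouring CTCF matches of the same desert were compared by direction. At 1e-04, 58.6% (53.7 to 63.3) of 420 neighbouring pairs pointed the same way, 25.7% pointed apart and 15.7% (12.4 to 19.6) pointed toward each other. Pairs of other sites that also lay between the same coding starts gave 56.3%, 30.4% and 13.3%, at a median gap of 19.4 kb against 96.0 kb in deserts. Neighbouring pairs of other sites without that limit, at a median gap of 68.7 kb, gave 46.6%, 26.7% and 26.7%, so whether desert pairs pointed toward each other more or less often depended on the pairs they were set beside. At 1e-05, 20 of 87 desert pairs (23.0%, 14.6 to 33.2) pointed toward each other against 15.7% with that limit and 26.6% without it. The motif pointed toward the nearer coding start at 369 of 852 desert sites (43.3%, 39.95 to 46.7) and at 45.4% of sites elsewhere outside genes.

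The gene nearest to a desert site was protein-coding at 283 sites, a small nuclear RNA gene at 178 and a small nucleolar RNA gene at 170. Of the sites 5 lay nearest to an gene of the annotated type immunoglobulin variable gene.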
